A study of Mus spretus with 12 samples.

Results

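Messenger RNA of 8 genes was followed in liver: the xenobiotic sensors Nr1i3 (which encodes CAR) and Nr1i2 (PXR), their partner Rxra, the hepatocyte factor Hnf4a, the stress regulators Nfe2l2 (NRF2) and Keap1, and the steroid receptors Esr1 (oestrogen receptor alpha) and Nr3c1 (glucocorticoid receptor). They were taken by gene name from the 37074 names with a probe on the array. They held 19 of the array's 56605 probes, of which 15 passed the filter on dim probes (well above background on the 4 arrays of 1 group or more), as did 27098 probes in all. A probe could pass through the 1 group in which it was bright. Nr1i2 and Keap1 had 1 probe each, Esr1 had 7 with 3 kept, and the other members had 2 each, all kept.

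The animals were male SPRET/EiJ mice, an inbred strain of Mus spretus, 20 months old at the start and 22 months at sampling, and no genetic change is named for any group. All 12 liver RNA samples came after 60 days on a Teklad diet with corn oil. The 4 control arrays had nothing more, the 4 DDE arrays had p,p'-DDE in the feed at 450 mg/kg, and the 4 PXDDE arrays had that feed and drinking water with Pedro Ximenez grape must (85 mg/L of polyphenols, 31 g/L of sugar as glucose and fructose). There was no group on must alone, so PXDDE against DDE shows the must, sugar included, only on top of p,p'-DDE. The labels call the arrays of a group replicates without saying that each is a separate animal, so the p-values measure only how far these arrays scatter, which may be technical.

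CAR and PXR are nuclear receptors that bind or respond to foreign compounds, pair with RXR alpha on DNA and switch on cytochrome P450 and conjugation genes. CAR waits in the cytoplasm in a complex with heat shock proteins and is released by dephosphorylation, NRF2 is held and marked for degradation by KEAP1 until electrophiles or oxidants disturb that hold, and the glucocorticoid receptor enters the nucleus on binding hormone, so the activity of these factors can change without a change in their mRNA. p,p'-DDE, a long-lived residue of the insecticide DDT, is known as an activator of CAR in rodents.

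Signals were given as log2 of the processed intensity minus the log2 of the 75th percentile of the same array, so that 0 is the level of that percentile, and a gene was represented by its brightest kept probe unless another is named. Between 50.12% and 52.01% of spots were well above background and no spot was saturated. The 75th percentile before scaling was 535.1 ± 32.2 in control, 610.8 ± 46.9 in DDE and 702.2 ± 7.63 in PXDDE (mean ± SD of intensity, n = 4). All 9 hepatocyte markers were above background in every group, with a summed log2 level of 12.24 to 12.39 in control, 12.17 to 12.21 in DDE and 11.98 to 12.11 in PXDDE. Markers of other tissues were far from even between the groups. Summed adrenal cortex markers were at 4.59 to 4.70 in control, 0.24 to 0.30 in DDE (Cyp11a1 and Cyp11b1 not above background) and 5.36 to 5.52 in PXDDE, and pancreatic acinar markers were at 7.96 to 8.06, 7.49 to 7.67 and 10.24 to 10.28. Changes are log2 differences between group means ± standard error, tested in 1 limma fit of 18678 genes and called at a Benjamini-Hochberg adjusted p under 0.05.

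In DDE against control 6 of the 8 genes were called, 4 higher (Rxra, Hnf4a, Nfe2l2, Keap1) and 2 lower (Nr1i3, Esr1), against 50.3% of all genes tested (24% higher and 26.3% lower). The groups did not overlap for those 6, as was so for 46.3% of all genes. In PXDDE against DDE 2 of 8 were called, Nr1i3 and Esr1, both lower, against 49.8% of all genes (20.2% higher and 29.6% lower). Only Nr1i3 had groups without overlap there, against 44.7% of all genes. In PXDDE against control 7 of 8 were called, 5 higher and 2 lower, against 70.8% of all genes (31.5% higher and 39.3% lower), and 6 had groups without overlap, against 65.2%. Against control 75% of the members were called in DDE and 87.5% in PXDDE, above the shares of all genes, and more were higher than lower. With 8 genes that gap is small in number and was not tested. The members' median changes were 0.27, -0.09 and 0.22 in the 3 comparisons, beside -0.02, -0.04 and -0.06 over all genes. The 3 comparisons share their control or DDE arrays and are not independent of each other.

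**Figure D1:**
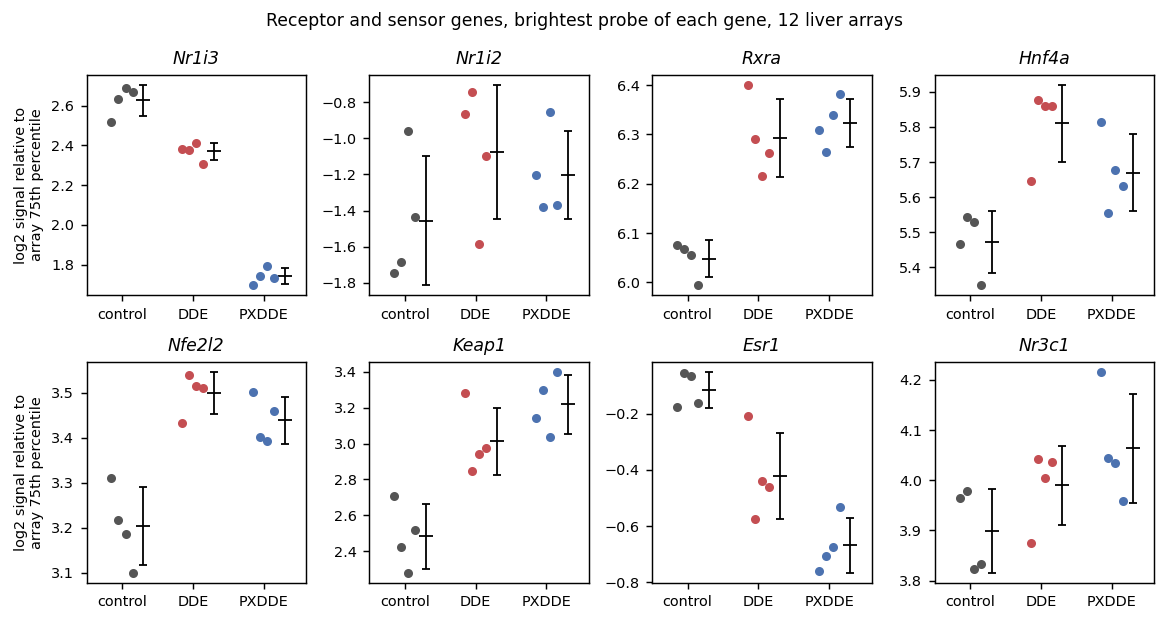
Each panel plots 1 gene: the vertical axis is log2 signal relative to the array's 75th percentile, points are the 4 arrays of each group, and bars are the mean ± SD; axes differ between panels and do not start at 0. Nr1i3 steps down from 2.63 in control to 2.37 in DDE and 1.74 in PXDDE with no overlap, Keap1 and Rxra lie above control in both p,p'-DDE groups, and the Nr1i2 groups overlap throughout.

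Nr1i3, which encodes CAR, was lower in both p,p'-DDE groups, and lowest with must. Its brightest probe lies at chr1:173147776-173147835 on the plus strand (build mm9), starting at base 1070 of its transcript, whereas the other crosses a splice junction near the 5′ end, within chr1:173144301-173144529, and holds an ATG followed by an open reading frame. Both are shown because they read different parts of the gene's transcripts, with the first ATG of the 5′ probe in capitals.
Nr1i3 5′ probe: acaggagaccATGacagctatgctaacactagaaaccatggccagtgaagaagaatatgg
Nr1i3 3′ probe: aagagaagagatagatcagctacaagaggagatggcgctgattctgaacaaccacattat
On the 3′ probe the control arrays stood at 2.52, 2.64, 2.69 and 2.67, the DDE arrays at 2.38, 2.38, 2.41 and 2.31, and the PXDDE arrays at 1.70, 1.74, 1.79 and 1.73. Every DDE array was below every control array, and every PXDDE array below every DDE array. The change was -0.26 ± 0.05 in DDE against control (adjusted p = 0.000932), -0.63 ± 0.05 in PXDDE against DDE (1.55-fold lower, adjusted p = 1.18e-06) and -0.89 ± 0.05 in PXDDE against control (1.85-fold lower, adjusted p = 2.24e-08). Within the 3 slides that held both groups the must difference was -0.68 to -0.62.

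The 5′ probe of Nr1i3 read 0.06, 0.29, 0.50 and 0.48 in control, 0.54, 0.11, 0.10 and 0.16 in DDE and -0.52, -0.28, -0.37 and -0.33 in PXDDE. Only the PXDDE arrays stood apart, all below every other array. In the fit over all 27098 kept probes it was lower in PXDDE than in DDE, with a change of -0.61 (adjusted p = 0.00156), and its change in DDE against control was -0.10 (adjusted p = 0.505), so the call with must held on both probes and the smaller one in DDE on 1. As these are bulk samples, fewer cells that express a gene and less RNA of it per cell cannot be told apart. Of 9 hepatocyte markers, 3 were called lower and 2 higher in DDE against control (median -0.16), and 4 lower and 1 higher in PXDDE against DDE (median -0.14). Their part in the result was not tested.

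The usual marker targets of CAR and PXR were higher in DDE. Cyp2b10, a cytochrome P450 induced through CAR, rose 82.0-fold in DDE on its brightest probe, a log2 change of 6.36. A further probe rose by 9.23 on the log2 scale, so the size of the rise depends on the probe. In PXDDE against DDE the brightest probe differed by 0.02 (adjusted p = 0.729) and the further probe was 0.28 higher (adjusted p = 0.00474). The value of 0.02 rests on the scaling. It was called higher with median centring (0.16), quantile normalisation (0.35), normexp and quantile together (0.33) and the deposited values (0.42). Cyp3a11, the usual target of PXR, rose 1.65-fold in DDE and differed by 0.08 in PXDDE against DDE (adjusted p = 0.269), but was called higher there under the same 4 scalings (0.22 to 0.37).

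Nr1i2, which encodes PXR, had 1 probe (chr16:38248745-38248804, minus strand), below the 75th percentile on every array, and the widest standard error of the members. It stood at -1.74, -1.69, -0.96 and -1.44 in control, -0.87, -0.75, -1.59 and -1.10 in DDE, and -1.21, -1.38, -0.86 and -1.37 in PXDDE, with overlap between all groups. The change in DDE was 0.38 ± 0.21, with a 95% interval of -0.08 to 0.85 (adjusted p = 0.153), and in PXDDE against DDE it was -0.13, with an interval of -0.59 to 0.33 (adjusted p = 0.642). A change of the size seen for Keap1 therefore lies inside the interval. Without control replicate 3 or DDE replicate 3 the value in DDE was called, at 0.55 each (adjusted p = 0.0413 and 0.0369), as it was with median centring (0.61, adjusted p = 0.0261; 0.63 in PXDDE against control, adjusted p = 0.0178).

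Rxra, the DNA-binding partner of CAR and PXR, was higher in both p,p'-DDE groups. Its brightest probe (chr2:27618345-27618404) read 6.08, 6.07, 6.06 and 5.99 in control, 6.40, 6.29, 6.22 and 6.26 in DDE and 6.31, 6.26, 6.34 and 6.38 in PXDDE. Every array with p,p'-DDE was above every control array, whereas DDE and PXDDE overlapped. The change was 0.24 ± 0.05 in DDE (1.18-fold, adjusted p = 0.00142), 0.27 ± 0.05 in PXDDE against control (adjusted p = 0.000298) and 0.03 in PXDDE against DDE (95% interval -0.07 to 0.14, adjusted p = 0.619). That last value rests on the scaling: it was 0.38 after quantile normalisation, 0.35 with normexp and quantile together, 0.33 in the deposited values and 0.17 with median centring, each called. The other probe (chr2:27615316-27615375) also rose, by 0.38 in DDE and 0.56 in PXDDE against control (adjusted p = 0.00137 and 3.67e-05).

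Hnf4a, a receptor that maintains hepatocyte identity and supports CAR expression, was higher in DDE on its brightest probe (chr2:163398548-163398607). That probe read 5.46, 5.54, 5.53 and 5.35 in control, 5.65, 5.88, 5.86 and 5.86 in DDE and 5.82, 5.55, 5.68 and 5.63 in PXDDE. Both p,p'-DDE groups lay above control and overlapped each other. The change was 0.34 ± 0.07 in DDE (1.27-fold, adjusted p = 0.00235), 0.20 ± 0.07 in PXDDE against control (adjusted p = 0.0281) and -0.14 in PXDDE against DDE (adjusted p = 0.125). The call in PXDDE against control was lost without control replicate 1 or 4 or PXDDE replicate 1 or 3 (adjusted p = 0.0532, 0.0813, 0.083 and 0.0536), and with the replicate number as a block (adjusted p = 0.058). Under other scalings the PXDDE value against control was larger, at 0.52 after quantile normalisation, 0.46 with normexp and quantile together, 0.38 in the deposited values and 0.57 with median centring, all called. The PXDDE value against DDE then turned to 0.15, 0.12, 0.09 and 0.00, not called. With the 75th percentile it was called without DDE replicate 1 (-0.20) or PXDDE replicate 1 (-0.19).

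The other Hnf4a probe (chr2:163378302-163378361, from base 413 of the transcript) lies in the stretch that encodes the zinc fingers with which the receptor binds DNA. It is printed because it did not show that rise, with the 3 cysteine codons of its single open reading frame in capitals.
Hnf4a zinc finger probe: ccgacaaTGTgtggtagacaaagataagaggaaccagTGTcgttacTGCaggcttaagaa
It stood at -0.06, 0.09, 0.20 and 0.15 in control, 0.20, 0.14, -0.05 and 0.06 in DDE and -0.10, -0.28, 0.08 and -0.22 in PXDDE. Control and DDE overlapped fully, with a change of -0.01 (adjusted p = 0.957). PXDDE was lower than control, at -0.22 (adjusted p = 0.0398), though their arrays overlapped. Both values rest on the scaling. With median centring the change in DDE was 0.22, called (adjusted p = 0.0481), and that in PXDDE against control turned to 0.15 (adjusted p = 0.138). Within arrays the brightest probe gained 0.42 ± 0.10 on this one from control to PXDDE (exact two-sided permutation p = 0.0286, the smallest that 4 against 4 arrays allow, adjusted p = 0.171). The adjustment was over all 24 comparisons of kept probes of a gene, a kind of test chosen after seeing the data. With that smallest p, the adjusted value cannot be small unless many of the 24 reach it.

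Keap1, the adaptor that marks NRF2 for degradation, had the largest called rise among the members. Its only probe joins exons spread over chr9:21035292-21035732 (minus strand), inside the part that encodes the kelch repeats which hold NRF2. It is shown with the paired glycine codons of such a repeat in capitals.
Keap1 kelch probe: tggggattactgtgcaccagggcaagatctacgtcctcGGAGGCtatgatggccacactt
Keap1 stood at 2.71, 2.42, 2.28 and 2.52 in control, 3.28, 2.85, 2.94 and 2.98 in DDE and 3.14, 3.30, 3.03 and 3.40 in PXDDE. Every array with p,p'-DDE was above every control array, and DDE and PXDDE overlapped. The change was 0.53 ± 0.12 in DDE (1.45-fold, adjusted p = 0.0029), 0.74 ± 0.12 in PXDDE against control (1.67-fold, adjusted p = 0.000142) and 0.21 ± 0.12 in PXDDE against DDE (95% interval -0.05 to 0.46, adjusted p = 0.164). Without DDE replicate 1, the highest DDE array, the must difference was 0.30 and called (adjusted p = 0.0429), as it was with the slide as a block (0.22, adjusted p = 0.045) and with median centring (0.35, adjusted p = 0.0298). Within single slides the rise in DDE ranged from 0.27 to 0.57.

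Nfe2l2, which encodes NRF2 itself, gave opposite answers on its probes. The brightest (chr2:75513771-75513830, minus strand, from base 2214 of the transcript) read 3.31, 3.22, 3.18 and 3.10 in control, 3.43, 3.54, 3.52 and 3.51 in DDE and 3.50, 3.40, 3.39 and 3.46 in PXDDE. The other (chr2:75529291-75529350), assigned in the scanner files to a separate Ensembl transcript, read 0.21, 0.26, 0.14 and 0.22 in control, -0.04, -0.22, -0.07 and -0.16 in DDE and -0.19, -0.17, -0.18 and -0.18 in PXDDE. On both, neither p,p'-DDE group overlapped control, but the first was above it and the second below.

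In DDE against control the first Nfe2l2 probe rose by 0.30 ± 0.05 (adjusted p = 0.000599) and the second fell, with a change of -0.33 ± 0.05 (adjusted p = 0.000251). In PXDDE against control the values were 0.24 (adjusted p = 0.00145) and -0.39 (adjusted p = 2.72e-05). The fall of the second probe rests on the scaling. With median centring it was at -0.10 in DDE and -0.01 in PXDDE against control, not called (adjusted p = 0.137 and 0.86). The first probe was then at 0.53 and 0.61, both called. The gap between the probes within an array, which centring does not alter, widened by 0.63 ± 0.08 in DDE and by 0.62 ± 0.06 in PXDDE (exact two-sided permutation p = 0.0286 each, adjusted p = 0.171). Neither probe was called in PXDDE against DDE (-0.06 each, adjusted p = 0.347 and 0.378). A single direction for Nfe2l2 mRNA is therefore not given by these probes.

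Esr1, the oestrogen receptor of hepatocytes, was lower in both p,p'-DDE groups on the 2 kept probes that were above background on every array. The brightest (chr10:5341167-5341226, minus strand) read -0.18, -0.05, -0.07 and -0.16 in control, -0.21, -0.57, -0.44 and -0.46 in DDE and -0.76, -0.71, -0.68 and -0.53 in PXDDE. Both p,p'-DDE groups lay below control, DDE replicate 1 only just, and PXDDE replicate 4 reached into the DDE range. The change was -0.31 ± 0.08 in DDE (1.24-fold lower, adjusted p = 0.00643), -0.25 ± 0.08 in PXDDE against DDE (adjusted p = 0.0195) and -0.55 ± 0.08 in PXDDE against control (1.47-fold lower, adjusted p = 5.07e-05). Without PXDDE replicate 1 the adjusted p of the must difference was 0.0525, and with the deposited values 0.0697.

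The next Esr1 probe (chr10:5343056-5343115) read -0.41, -0.30, -0.35 and -0.51 in control, -1.14, -0.78, -0.71 and -0.87 in DDE and -1.10, -1.26, -1.39 and -1.31 in PXDDE. It was lower throughout, with changes of -0.48 in DDE, -0.39 in PXDDE against DDE and -0.87 in PXDDE against control (adjusted p = 0.0017, 0.00623 and 8.25e-06). The third (chr10:5489352-5489411) was above background on 4 control, 2 DDE and 2 PXDDE arrays and so passed only through control, where it is brightest. It read -3.79, -3.85, -3.79 and -4.05 in control, -4.39, -4.50, -4.10 and -4.93 in DDE and -5.01, -4.49, -4.34 and -4.02 in PXDDE, and is not used as support. Its change in DDE was not called under 4 of the 5 other scalings. Of the 4 probes not kept, 1 was above background on 1 control and 2 DDE arrays, 1 on a single DDE array and the others on none, so they have no fold. Markers of Kupffer cells, the liver's resident macrophages, were lower in the same order, with 7 of 7 called lower in DDE and 6 of 7 in PXDDE against DDE, and summed levels of 5.65 to 5.79 in control, 5.32 to 5.45 in DDE and 4.92 to 5.09 in PXDDE. That order was not particular to Kupffer cells. Mean summed levels also fell in it for hepatocyte, endothelial, stellate, T cell, B cell, neutrophil, erythroid and skeletal muscle markers. Sums of successive groups overlapped in part for endothelial, stellate, T cell, B cell and erythroid markers, and single genes did not all follow. Of 5 endothelial markers none was called in DDE, and 2 were higher and 1 lower in PXDDE against DDE. Of 3 erythroid markers tested, 1 was higher and none lower in DDE. Stellate means were 6.40, 6.16 and 5.89 in control, DDE and PXDDE, and skeletal muscle means 7.52, 6.19 and 5.78. Cholangiocyte, adipocyte, adrenal cortex, pancreatic and stratified epithelium markers did not follow it. The part of any of these markers in the Esr1 values was not tested.

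Nr3c1, the glucocorticoid receptor, had the smallest changes of the members against control. Its brightest probe, on chromosome 18, read 3.96, 3.98, 3.82 and 3.83 in control, 3.88, 4.04, 4.00 and 4.04 in DDE and 4.22, 4.04, 4.04 and 3.96 in PXDDE, with overlap between all groups. The change was 0.09 ± 0.07 in DDE (95% interval -0.05 to 0.23, adjusted p = 0.269), 0.07 in PXDDE against DDE (adjusted p = 0.374) and 0.16 ± 0.07 in PXDDE against control (adjusted p = 0.0404). That call was lost without control replicate 3 or 4, DDE replicate 3 or PXDDE replicate 1, 2 or 3 (adjusted p from 0.052 to 0.117) and with the replicate number as a block (adjusted p = 0.0659). With median centring all 3 comparisons were called, at 0.32, 0.22 and 0.54 (adjusted p = 0.00101, 0.0137 and 9.32e-06). The other probe was not called in any comparison (0.18, -0.05 and 0.13).

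**Figure D2:**
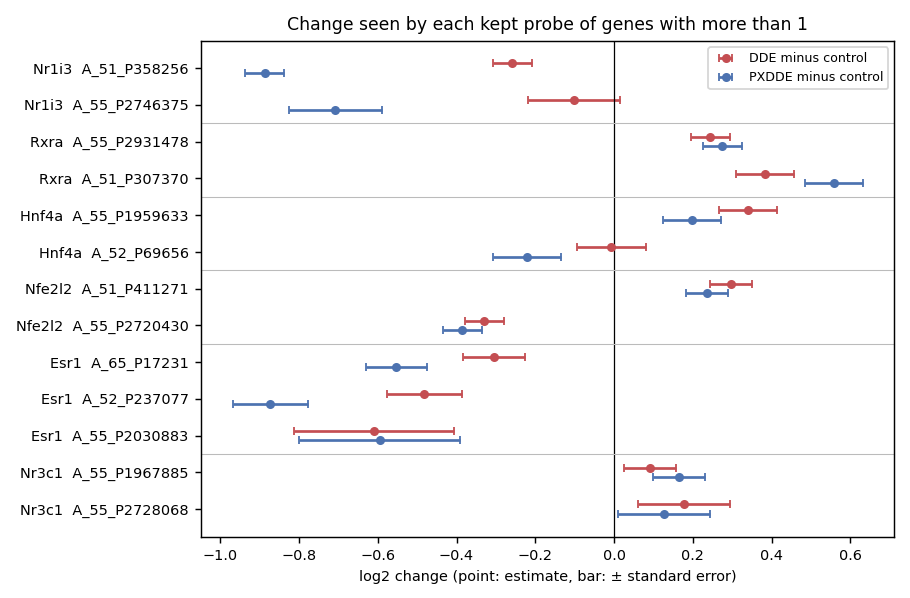
Points are the log2 change on each kept probe of the members with more than 1 kept probe, bars are ± standard error, red is DDE against control and blue PXDDE against control. Both probes of Nr1i3, Rxra and Nr3c1 and the 2 brighter Esr1 probes lie on 1 side of 0 (the third Esr1 probe passed only through control), whereas the Nfe2l2 probes lie at 0.30 and -0.33 in DDE and the Hnf4a probes at 0.20 and -0.22 in PXDDE.

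Over the 15 kept probes, 5 were higher, 5 lower and 5 not called in DDE against control, where 47.4% of all kept probes were called (23% higher and 24.5% lower). In PXDDE against DDE 4 were lower and none higher, where 45.6% of all kept probes were called (18.6% higher and 27% lower), and those 4 were both Nr1i3 probes and the 2 brighter Esr1 probes. In PXDDE against control 6 were higher and 7 lower, where 68.5% were called (31.3% higher and 37.2% lower). The lower probes against control include the third Esr1 probe, which passed only through control.

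The scaling of the arrays matters for changes of this size. Centring each array on its median in place of its 75th percentile moved the median change of all genes from -0.02 to 0.21 in DDE against control, from -0.04 to 0.10 in PXDDE against DDE and from -0.06 to 0.32 in PXDDE against control. With it, 81.26% of called genes were higher in DDE, against 47.66% with the 75th percentile, and the other splits went from 40.59% to 66.32% and from 44.5% to 73.08%. Under median centring the lower values of Nr1i3 and Esr1 in DDE came to -0.03 and -0.07 and were not called (adjusted p = 0.695 and 0.488), nor was Esr1 with must (-0.10 against DDE, -0.18 against control, adjusted p = 0.339 and 0.0836). Relative to the median gene, a value that is the same for both scalings by construction, Nr1i3 was at -0.23 in DDE and at -0.59 in PXDDE against DDE, and Esr1 at -0.28 and -0.21. Quantile normalisation moved the split of PXDDE against DDE to 52.18% higher, normexp with quantile to 52.67% and the deposited values to 52.64%. Nr1i3 in both comparisons of PXDDE, and Keap1 and Rxra against control in either p,p'-DDE group, were called in the same direction under all 5 other scalings.

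**Figure D3:**
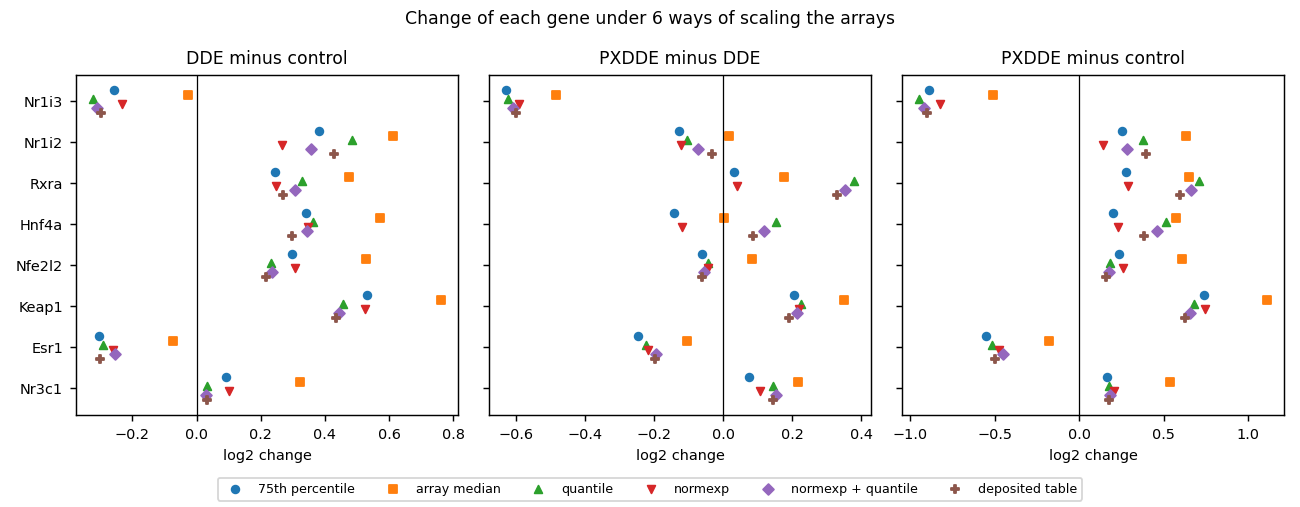
Each row is a gene and each marker the log2 change under 1 of 6 scalings, in 3 panels for the 3 comparisons; the vertical line is no change. Median centring (squares) lies to the right of the others in DDE minus control, moving Nr1i3 from -0.26 to -0.03, and Rxra in PXDDE minus DDE spreads from 0.03 to 0.38.

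The genes around the receptors were counted in lists, to be read beside 24% of all genes higher and 26.3% lower in DDE against control (median -0.02) and 20.2% higher and 29.6% lower in PXDDE against DDE (median -0.04). A gene on several lists counts under each. Gstm1, Gstm3 and Ephx1 are listed both as targets of CAR and PXR and as targets of NRF2, so those counts are not separate. Of 37 tested targets of CAR and PXR, 33 were higher and 1 lower in DDE against control (median 0.96), and 8 were higher and 8 lower in PXDDE against DDE (median 0.02; under the other scalings 10 to 22 higher and 4 to 6 lower). Against DDE, Gadd45b, a CAR-responsive gene, was 2.71-fold lower in PXDDE and Abcb1a, a drug efflux pump, 1.52-fold higher. Of 14 genes that keep CAR in the cytoplasm or release it, 7 were higher and 1 lower in DDE, and 4 were higher and 1 lower in PXDDE against DDE (6 to 12 and 6 to 9 higher under the other scalings). Ppp2r1a, a subunit of the phosphatase that acts on CAR, rose at each step (0.43 and 0.44). Gnb2l1, which encodes the scaffold RACK1, fell by 0.36 and 0.54 on the log2 scale.

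Of 16 coactivators and corepressors that nuclear receptors recruit, 6 were higher and 2 lower in DDE (median 0.10), and 9 higher and 2 lower in PXDDE against DDE (median 0.16). Nrip1, a corepressor, was lower in DDE (-0.51), and Ncoa1, a coactivator, rose at each step (0.21 and 0.23). Under the other scalings 4 to 12 were higher and 1 or 2 lower in DDE. Of 33 other nuclear receptors 31 were tested, with 18 higher and 8 lower in DDE and 12 higher and 5 lower in PXDDE against DDE (11 to 23 and 3 to 7, and 13 to 20 and 2 to 4, under the other scalings). Nr4a1, an immediate early receptor, was 2.57-fold lower in DDE and 2.59-fold higher in PXDDE than in DDE, the order in which the adrenal cortex markers above moved, whose part in it was not tested. Vdr, the vitamin D receptor, was 1.91-fold lower in PXDDE than in DDE, and Nr0b2, the bile acid responsive repressor SHP, 1.44-fold higher.

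Of 16 targets of HNF4A, 6 were higher and 4 lower in DDE (median 0.09) and 4 higher and 6 lower in PXDDE against DDE (median 0.01). This balance turned with the scaling: under the 5 others 6 to 11 were higher and 0 to 4 lower in DDE, and 6 to 8 higher and 1 to 5 lower in PXDDE against DDE (medians of 0.04 to 0.15). Mttp, which loads lipid onto lipoproteins, rose at each step (0.41 and 0.28), and Slc2a2, the liver glucose transporter, was 1.74-fold higher in PXDDE than in DDE. Of 24 tested targets of NRF2, 19 were higher and 1 lower in DDE (median 0.48), among them Gclm, a subunit of the enzyme that limits glutathione synthesis (2.81-fold), and Aox1, an aldehyde oxidase (2.83-fold). In PXDDE against DDE 10 were higher and 4 lower (median 0.04; under the other scalings 10 to 16 higher, 1 to 3 lower and medians of 0.07 to 0.28). The higher ones included Me1, G6pdx and Pgd (2.38-, 2.55- and 1.95-fold), which supply NADPH and are also lipogenic and sugar-responsive enzymes, and Cbr1, a carbonyl reductase, was 2.01-fold lower. Of 16 regulators of the KEAP1-NRF2 system 8 were higher and 2 lower in DDE (6 to 14 higher under the other scalings). Sqstm1, the autophagy receptor that binds KEAP1, rose by 0.31 in DDE and by a further 0.54 with must, and Syvn1, a ubiquitin ligase of NRF2, by 0.58 and 0.44.

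Partners and targets of the glucocorticoid receptor were lower with must. Of 22, 2 were higher and 15 lower in PXDDE against DDE (median -0.41; 13 to 15 lower and medians of -0.37 to -0.26 under the 5 other scalings), while the receptor's own mRNA differed by 0.07. The lower ones included the metallothioneins Mt2 (3.58-fold) and Mt1 (2.45-fold), Zbtb16 (1.76-fold) and Igfbp1 (1.70-fold); metallothioneins also respond to zinc and Igfbp1 to insulin. In DDE against control 8 were higher and 5 lower, with a median of -0.05 that turned to 0.18 under median centring. Adrenal cortex markers, which were far higher in PXDDE than in DDE, moved opposite to this list, and their part was not tested. Of 11 tested of 17 sex steroid receptors and enzymes, 4 were higher and 5 lower in DDE, and 4 higher and 4 lower in PXDDE against DDE, with medians of -0.15 and -0.04 that ranged from -0.19 to 0.08 and from 0.01 to 0.20 under the other scalings. Hsd3b5, a male-predominant hepatic enzyme of steroid reduction, fell at each step, 4.81-fold and 3.78-fold. Other genes of this list moved otherwise. Srd5a2 and Greb1, above background on no DDE array, were at least 2.75- and 1.17-fold lower in DDE than in control. Against DDE they were at least 3.99- and 1.95-fold higher in PXDDE. Hsd17b2 changed by 0.44 in DDE and by -0.32 in PXDDE against DDE.

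**Figure D4:**
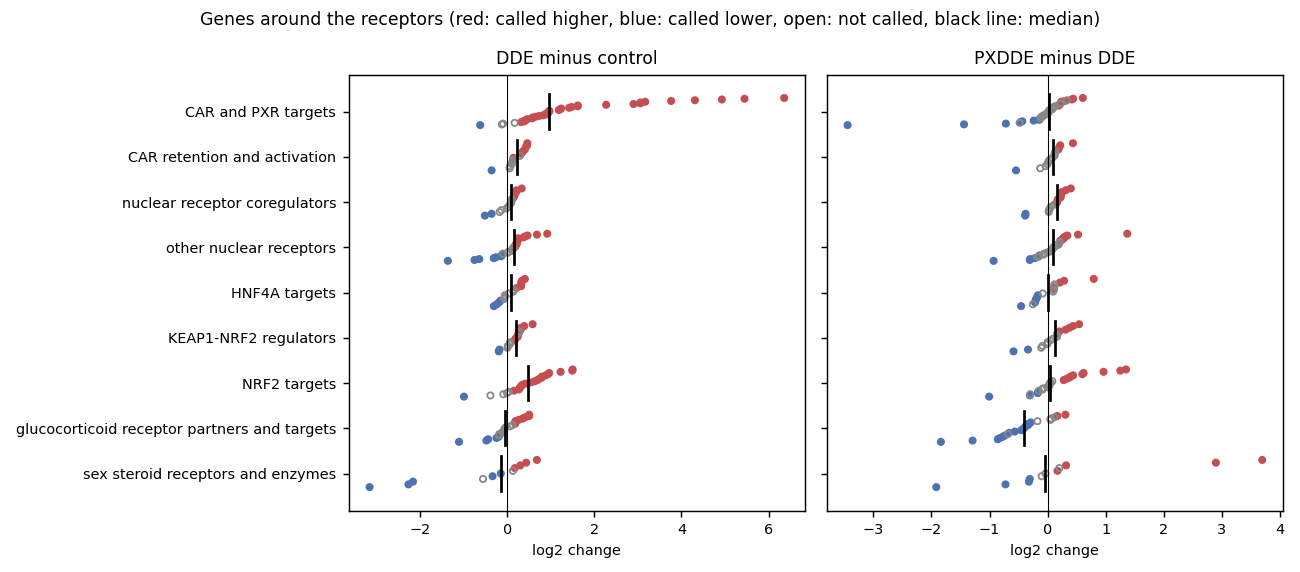
Each point is a gene of a list, placed by its log2 change in DDE against control (left) or PXDDE against DDE (right), filled red or blue where called higher or lower and open where not called; black lines are list medians. The CAR and PXR targets have a median of 0.96 on the left and 0.02 on the right, and the glucocorticoid list a median of -0.05 on the left and -0.41 on the right.

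Likeness was sought among 12765 genes above background on all 12 arrays, leaving out those with only Gm, Rik, LOC, accession or similar names. Of these, the 3 whose pattern was most like that of each called member were listed by Pearson's r over the 12 arrays. This is a description in which the group differences carry most of the likeness. For Nr1i3 they were G0s2, Igsf6 and Fam84a (r = 0.991, 0.99 and 0.989), and 540 genes exceeded 0.95. For Rxra they were Pglyrp2, Rhbdf1 and Slc35a4 (r = 0.97 each), with 43 genes over 0.95. Keap1 was most like Pard3, Ghdc and Lrrc61 (r = 0.979 each), with 82 over 0.95. Esr1 was most like Fcgr4, an Fc receptor of myeloid cells, Selm and Ppp1r18 (r = 0.975, 0.973 and 0.971), with 32. Nfe2l2 was most like Cldn3, Pir and Fgd4 (r = 0.975, 0.971 and 0.968), with 22. For Hnf4a and Nr3c1, 1 gene each exceeded 0.95: Aldh3a2 (r = 0.954) and Ibtk (r = 0.955).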

How the data were processed

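Liver RNA was measured on 12 one-colour Agilent arrays (Cy3), per the labels. Each scanner file gives a processed intensity and quality marks per spot; per the file headers it came from Agilent Feature Extraction 11.5.1.1, which the submitters' processing notes name with RMA and limma. The deposited value table is on a log2 scale, found by setting it against the log2 intensity (r of 0.9949 to 0.9964 per array); its columns have medians from 5.3243 to 5.3479, and the steps that made it, centring included, stay unknown here.

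Here log2 intensity minus the array's log2 75th percentile was used, without the 3671 control spots of 62976 and without outlier spots (102 to 177 per array). Where all spots of a probe on an array were outliers, as for 84 probe values, they were kept. Spots of a probe were averaged. A gene (18678 tested) took its brightest probe well above background on all 4 arrays of a group. limma 3.58.1 (R 4.3.3, with the package data.table in its version 1.17.8) fitted group over the 12 arrays with 9 residual degrees of freedom, eBayes and Benjamini-Hochberg adjustment. Names and mm9 coordinates are the scanner files' and can be old; exon and UTR annotation, and mismatches between laboratory mouse probes and Mus spretus, were not used here.

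The members and lists were chosen with earlier results of these data known. Named beside the members were up to 4 list genes with the smallest p per comparison, the 3 most alike genes of each called member, and Cyp2b10 and Cyp3a11. Not every gene chosen this way is reported here. Summed marker levels are log2 of the summed linear values. On simulated data for DDE against control, over 18678 genes, 50 genes were changed at each size and no others. Of those changed by 0.25, 0.5, 1 and 2, 16%, 64%, 80% and 98% were called, with 3 false calls. With 9395 genes called in the real fit, a larger p passes the adjustment, so these shares do not describe that fit. Replicate numbers did not pair arrays (correlations of deviations of -0.344 to 0.131). The 5 slides, each a scan pass of its own, held 2 or 3 groups and were entered as a block and compared one by one. Alternatives were other scalings and background corrections, probe filters and summaries, blocks, and each array left out.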

Additional observations from a re-analysis of the deposited data

Results flagged for a closer look

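Of 45 groups of 4 arrays checked over the kept probes of the members, 2 held an array set apart from the other 3 by Dixon's criterion at the 95% level, where chance gives about 1 in 20. On the brightest Hnf4a probe, DDE replicate 1 stood at 5.647 and the others at 5.86 to 5.877. On the 5′ probe of Nr1i3, DDE replicate 1 stood at 0.537 and the others at 0.10 to 0.16. Both are the same array, which was also the highest DDE array on the brightest probes of Rxra, Keap1 and Esr1. On the next Esr1 probe it was the lowest DDE array, at -1.144, with the others at -0.872 to -0.707.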

How the results depend on the processing

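Of 600 member values over 25 alternatives each, 552 kept their direction and side of the threshold and 9 changed sign. Of those 9, 6 were not called before or after: PXDDE against DDE of Hnf4a (4 scalings), Nfe2l2 and Nr1i2 (median centring). With the mean of a gene's kept probes, Nfe2l2 came to -0.0166 in DDE against control (adjusted p = 0.75) and -0.0749 in PXDDE against control (adjusted p = 0.107), and Hnf4a to -0.0118 in PXDDE against control (adjusted p = 0.872). These means hold probes of opposite sign. Called members then numbered 4 in DDE against control, where the call of Nr1i3 was lost too, and 4 in PXDDE against control. In PXDDE against DDE they numbered 4 with median centring and 2 to 4 when an array was left out (4 without DDE replicate 1). Without a filter on dim probes, which tests more genes, 14074 and 21766 genes were called in PXDDE against DDE and against control, where 9302 and 13230 were called. With the replicate number as a block 6, 2 and 5 members were called in DDE against control, PXDDE against DDE and PXDDE against control; Hnf4a and Nr3c1 lost their calls in the last, and no other member call changed. Within slides no called member changed sign. The third Esr1 probe, near background, and the wide scatter of the Nr1i2 probe limit what 4 arrays a group can show.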
